A study of Mus musculus with 4 samples.

Results

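Claudins and occludin are membrane proteins of the tight junction, the belt near the top of epithelial cells that controls what passes between them. The 10 members read here were *Cldn1*, *Cldn2*, *Cldn3*, *Cldn4*, *Cldn7*, *Cldn8*, *Cldn12*, *Cldn15*, *Cldn23* and *Ocln*. They were chosen by name, as all probes to which the array design gives these symbols, which were 14 of the 39423 probes and 10 of the 22278 genes that could be named. *Cldn2*, *Cldn4*, *Cldn7* and *Ocln* have 2 probes each and the other 6 genes have 1. Of the 10 genes, 9 were well above background on all 4 arrays and *Cldn1* on none.

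Claudins fall into groups by what they do to the space between cells. Sealing claudins such as *Cldn1*, *Cldn3*, *Cldn4* and *Cldn8* tighten it, whereas *Cldn2* and *Cldn15* form pores for cations and water in the gut. *Cldn7* is abundant in colon epithelium and also sits along the lateral membrane. Occludin belongs to another protein family and takes part in how the junction is organised and remodelled. In the colon, levels of these proteins differ between crypt and surface cells and are known to shift in tumors.

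The 4 arrays cover male mice of the background strain B6.129 (n3), 42 weeks old, that were *Pla2g3*+/+ or carried the *Pla2g3*-/- deletion of group III secreted phospholipase A2. The deletion was inherited, not limited to a tissue, and the wild-type mice were littermates. Each genotype received saline, the vehicle, or the colon carcinogen azoxymethane (AOM), at 10 mg/kg into the abdomen weekly for 6 weeks, and the colon was taken 28 weeks after the last injection. Each array holds 1 RNA pool of colon tissue from 3 to 5 mice, and the labels call the tissue of both AOM pools colorectal cancer. There are no replicates, so no difference below has a p-value, and array and group cannot be told apart.

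Signals are given as scaled signals, the processed intensity of a probe over the array's own 75th percentile, so that a value of 1 is that percentile. The percentile was an intensity of 645.6 and 649.8 on the vehicle arrays and of 1309 and 1169 on the AOM arrays, and between 64.8% and 69.4% of spots were well above background. Ratios between a pair of arrays are log2 ratios of scaled signals and are read against a threshold of 2-fold, a log2 ratio of 1 in size. Every member probe has 1 spot per array. Probes with 3 or more spots had a median SD of 0.058 to 0.066 log2 units between spots of 1 array, which leaves out all spread between mice and between labelings.

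*Pla2g3* itself went against the labels. Its brightest probe had scaled signals of 0.531 in the *Pla2g3*+/+ pool and 0.656 in the vehicle pool labeled *Pla2g3*-/-, and the AOM pools read 0.232 and 1.4. After AOM the 3 probes for *Pla2g3* were 6.01-fold, 6.66-fold and 2.76-fold higher on the array labeled *Pla2g3*-/-. Whether these probes lie in the deleted part of the gene is not known from the sources used here. The pools are therefore named by their labels, and every direction drawn between genotypes rests on those labels.

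Several cell type marker lists differed strongly between the AOM pools, and the pancreatic acinar list did so between the vehicle pools. All 10 smooth muscle markers, such as *Tagln*, *Cnn1* and *Actg2*, were over 2-fold lower in the *Pla2g3*+/+ AOM pool than in the *Pla2g3*+/+ vehicle pool, and their summed scaled signal was 522.1 and 548 with vehicle, 31.7 in the *Pla2g3*+/+ AOM pool and 502.4 in the AOM pool labeled *Pla2g3*-/-. *Lmod1* was the one of them not well above background there. Of 9 colonocyte markers, 8 were over 2-fold lower in the *Pla2g3*+/+ AOM pool than with vehicle, with summed scaled signals of 675.8, 714.2, 66.8 and 371.4 in the same order. All 8 goblet cell markers were lower as well, with sums of 1502, 1419, 116.2 and 587.5. Of 12 Wnt target genes of colon tumors, 11 were over 2-fold higher in that pool, with sums of 26.9, 28.9, 84.5 and 29.8. Of 8 endothelium markers, 5 were over 2-fold higher after AOM in *Pla2g3*+/+, with a median log2 ratio of 1.27 and of -0.74 between the AOM pools, and their sums were 6.5, 6.93, 7.79 and 5.37. The general epithelium list stood at a median of -0.48 after AOM in *Pla2g3*+/+. Its 10 genes, all well above background on every array and including *Krt8* and *Lgals4*, summed to 791.8, 774.7, 469 and 707.3. *Krt5*, a keratin of squamous epithelium, had an unscaled intensity of 17850 in the AOM pool labeled *Pla2g3*-/- against 33.4 to 36.2 elsewhere. Its scaled log2 ratio between the AOM pools was 9.17. Of the 8 squamous markers with a value in that comparison, 1 was over 2-fold higher, 1 lower and 6 within 2-fold. After AOM in *Pla2g3*+/+, 3 of 8 squamous markers were over 2-fold higher and 2 lower. In the pool labeled *Pla2g3*-/-, 4 of 7 were higher and 0 lower. Shares over all genes are given with the members below. *Ivl* and *Krt1*, markers of cornified layers, were on no array well above background. The 10 squamous markers summed to 6.33, 5.7, 6.93 and 24.3, with *Krt5* the brightest of them on the last array. All 10 genes of pancreatic acinar cells, such as *Amy2a5* and *Ctrb1*, were over 2-fold higher in the vehicle pool labeled *Pla2g3*-/-, with a summed scaled signal of 45 against 0.471, 4.52 and 0.259 elsewhere. *Amy2a5* was far the brightest of them in that vehicle pool, at an unscaled intensity of 22552. In the *Pla2g3*+/+ AOM pool *Pnliprp1* was far the brightest, at 5688. Of the 7 acinar genes with a value after AOM in *Pla2g3*+/+, 1 was over 2-fold higher and 2 lower. The part of these shifts in the results below was not tested, and in pooled tissue fewer cells of a type and less RNA per cell cannot be told apart.

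**Figure D1:**
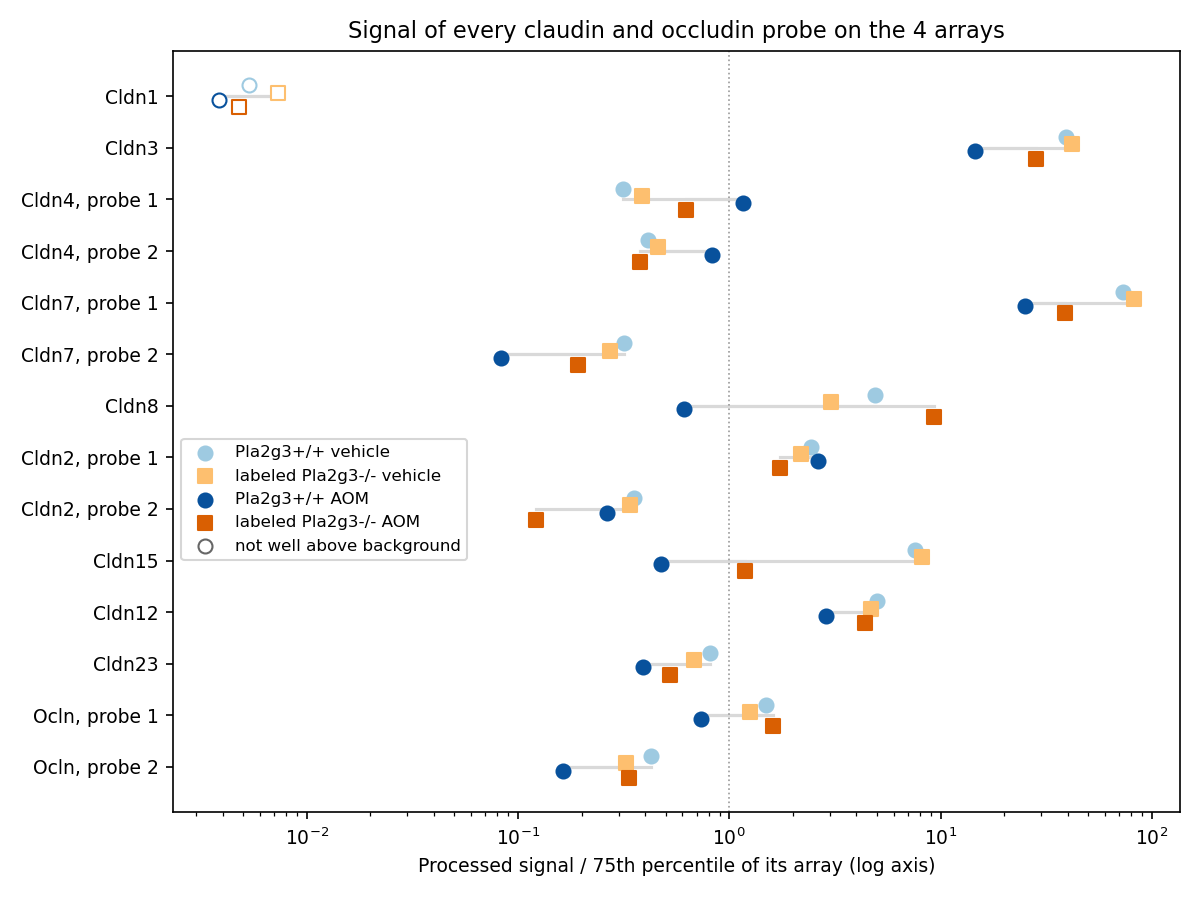
Scaled signal (processed intensity over the 75th percentile of its array, log axis) of each of the 14 member probes on the 4 arrays. Circles are *Pla2g3*+/+ pools, squares are pools labeled *Pla2g3*-/-, pale symbols are vehicle, dark symbols are AOM, and open symbols are not well above background. The vehicle pools lie within 2-fold of each other for every member well above background, whereas *Cldn8* spans 0.612 to 9.29 and *Cldn15* spans 0.476 to 8.21 over the 4 pools.

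Sequence is shown for *Cldn3*, *Cldn4*, *Cldn7* and *Cldn15*, because *Cldn3* and *Cldn4* are neighbors whose signals moved in opposite directions after AOM in *Pla2g3*+/+, and *Cldn7* and *Cldn15* were lower there like *Cldn3*. On mm9, the build of the array files, the probe of *Cldn3* (chr5:135463284-135463342) and the nearer probe of *Cldn4* (chr5:135422135-135422194) are 41.1 kb apart. The 250 bases before the annotated start of each gene were taken from RefSeq on GRCm38.p6, whose start sites cover 8 of the 10 members at 12 sites. Capitals mark letters of 4 motifs read on both strands, namely TTTATG for Cdx factors, CACCTG for the E-box that Snail and Zeb factors bind, GGGCGG for the GC box of Sp and Klf factors, and CTTTGA or CTTTGT for the Tcf/Lef core. None of these words contains another.

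*Cldn3*, chr5:134985964-134986213, plus strand: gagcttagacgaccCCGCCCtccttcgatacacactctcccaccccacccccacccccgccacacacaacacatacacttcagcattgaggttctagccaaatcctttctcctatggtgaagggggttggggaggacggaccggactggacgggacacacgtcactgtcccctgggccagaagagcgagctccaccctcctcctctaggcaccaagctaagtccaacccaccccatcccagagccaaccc
*Cldn4*, chr5:134946935-134947184, minus strand: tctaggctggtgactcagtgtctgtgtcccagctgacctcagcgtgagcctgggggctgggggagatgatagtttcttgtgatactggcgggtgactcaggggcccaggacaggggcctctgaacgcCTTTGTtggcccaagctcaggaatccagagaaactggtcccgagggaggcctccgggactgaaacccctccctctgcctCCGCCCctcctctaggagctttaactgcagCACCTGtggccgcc
*Cldn7*, second start, chr11:69965171-69965420, plus strand: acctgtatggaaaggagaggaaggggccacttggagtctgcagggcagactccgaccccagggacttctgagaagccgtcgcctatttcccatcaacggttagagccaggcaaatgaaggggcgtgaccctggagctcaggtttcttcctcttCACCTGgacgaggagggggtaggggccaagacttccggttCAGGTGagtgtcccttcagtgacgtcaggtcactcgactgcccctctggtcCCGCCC
*Cldn15*, chr5:136967619-136967868, plus strand: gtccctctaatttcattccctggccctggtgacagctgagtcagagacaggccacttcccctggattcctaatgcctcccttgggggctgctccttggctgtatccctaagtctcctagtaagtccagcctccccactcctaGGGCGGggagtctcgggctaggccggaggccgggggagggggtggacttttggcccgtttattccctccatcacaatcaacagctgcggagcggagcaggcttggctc

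The stretch before *Cldn4* holds 1 E-box, 1 GC box and 1 Tcf/Lef core, whereas that before *Cldn3* holds a GC box alone. Before the second start of *Cldn7* there are 2 E-boxes and 1 GC box, whereas the stretch before its first start (chr11:69964529-69964778) holds none of the 4 motifs, and before *Cldn15* there is 1 GC box. Over the members with a listed start, the GC box is found before 7 of 8 genes, the E-box before 3 (*Cldn4*, *Cldn7* and *Ocln*), the Tcf/Lef core before 2 (*Cldn1* and *Cldn4*) and the Cdx letters before 1 (*Cldn2*). Counted by stretch, 9 of the 12 member stretches hold the GC box, 3 the E-box, 2 the Tcf/Lef core and 1 the Cdx letters. The stretches of *Cldn12* overlap one another, as do those of *Ocln*, so the count by stretch can hold the same bases more than once. Among 32817 promoter stretches of the same length, 32.7% hold the GC box, 17.2% the E-box, 27.6% the Tcf/Lef core and 10.8% the Cdx letters. These matches are letters in a window and say nothing about binding.

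Between the vehicle pools no member differed by 2-fold. The counts were 0 of 9 higher and 0 of 9 lower in the pool labeled *Pla2g3*-/-, where 1.92% of all 16322 genes with a value were over 2-fold higher and 1.32% lower. The median log2 ratio of the 9 members was -0.1, against -0.02 for all genes. *Cldn8* was the farthest from equal, 1.61-fold lower, and *Cldn4* the highest, at 1.24-fold. Every other member lay between log2 ratios of -0.25 and 0.17 by its brighter probe. The acinar genes were higher in the pool labeled *Pla2g3*-/-, as given above, while the epithelium list stood at a median of -0.08.

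After AOM the members moved apart in the *Pla2g3*+/+ pool. Relative to vehicle, 6 of 9 were over 2-fold lower (*Cldn3*, *Cldn7*, *Cldn8*, *Cldn15*, *Cldn23* and *Ocln*), 1 was over 2-fold higher (*Cldn4*), and *Cldn2* and *Cldn12* stayed within 2-fold. Over all 17206 genes with a value, 22.3% were over 2-fold lower and 15.1% higher. The median log2 ratio of the members was -1.06, against -0.17 for all genes and -0.48 for the epithelium list. Taken relative to the epithelium list, 3 members were still over 2-fold lower (*Cldn7*, *Cldn8* and *Cldn15*) and *Cldn4* alone was higher. Without any scaling 2 were lower (*Cldn8* and *Cldn15*) and 2 higher (*Cldn2* and *Cldn4*). The all-gene median moved by 0.48 and 1.04 log2 units under these alternatives, and no share over all genes is given for them.

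In the pool labeled *Pla2g3*-/- fewer members were past the threshold after AOM. Relative to vehicle, 2 of 9 were over 2-fold lower (*Cldn7* and *Cldn15*) and 1 was higher (*Cldn8*), where 15.1% of 16445 genes were lower and 9.64% higher. The median of the members was -0.35, against -0.08 for all genes and 0.07 for the epithelium list. Without scaling this split became 1 lower and 3 higher, with the all-gene median moved by 0.84 log2 units. Under quantile normalization, with or without normexp, and with the percentile taken over detected probes, it was 1 and 1, because *Cldn7* came within 2-fold.

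Set side by side, the AOM pools differed by over 2-fold in 3 members. *Cldn8*, *Cldn15* and *Ocln* were past the threshold on the high side in the pool labeled *Pla2g3*-/- and 0 of 9 were over 2-fold lower by the brighter probe, where 15.1% of 17124 genes were higher and 12.9% lower. The median log2 ratio was 0.63 for the members, 0.03 for all genes and 0.69 for the epithelium list. Relative to that list, *Cldn8* was the one member over 2-fold higher, and *Cldn2* and *Cldn4* were over 2-fold lower. The all-gene median then moved by -0.69 log2 units, and no share over all genes is given for that scaling. The 4 comparisons share arrays, so each ratio after AOM between genotypes and each AOM/vehicle ratio of the same gene rest on the same signals.

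**Figure D2:**
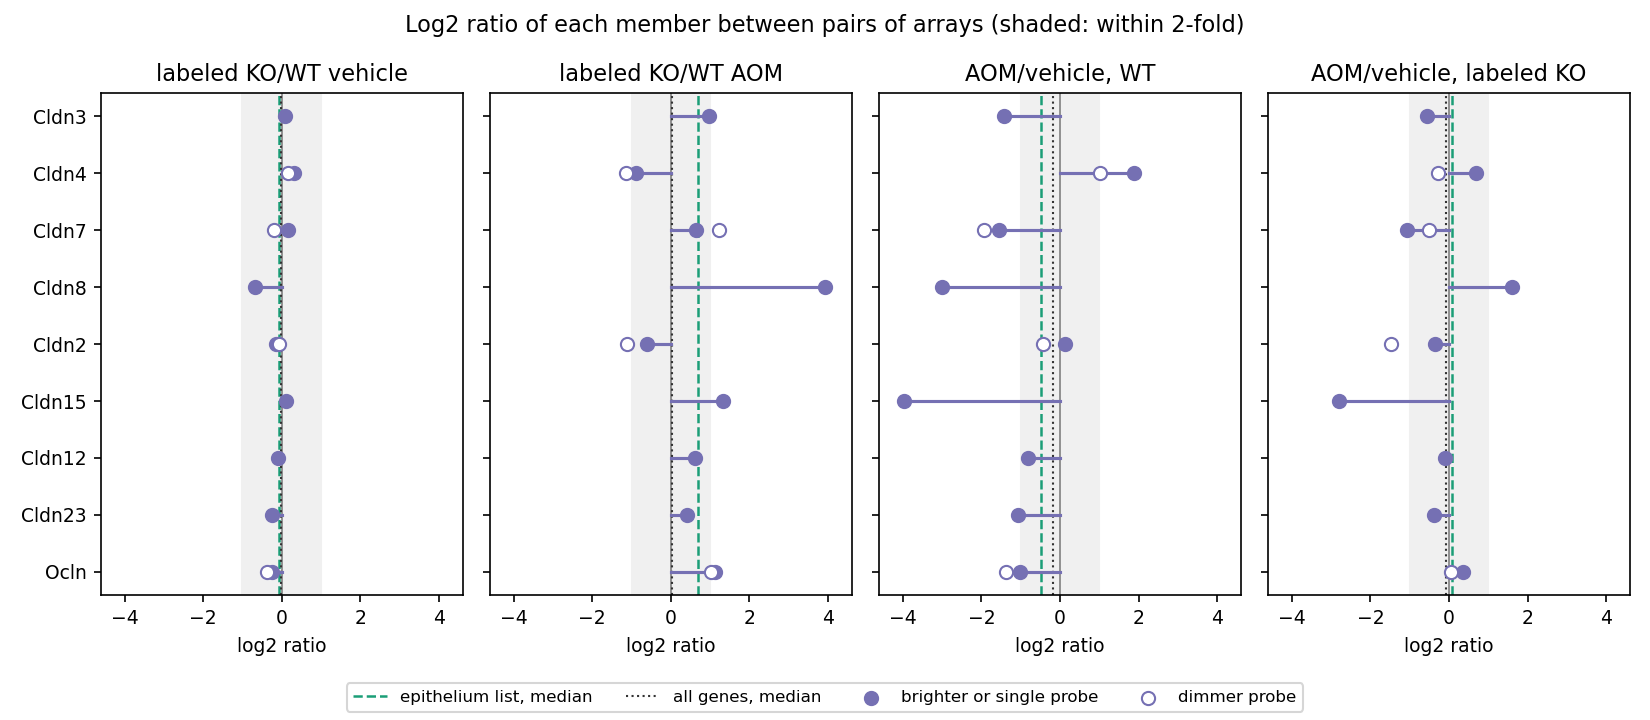
Log2 ratio (x axis) of the 9 members with a value in the 4 comparisons, with the brighter or single probe filled and the dimmer probe open. The shaded band is within 2-fold, the dashed line is the median of the epithelium list and the dotted line the median of all genes. Vehicle ratios lie within the band, AOM/vehicle in *Pla2g3*+/+ runs from -3.98 (*Cldn15*) to 1.89 (*Cldn4*), and between the AOM pools *Cldn8* stands at 3.92.

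Among the sealing claudins *Cldn8*, which tightens the distal colon, had the widest span. Its probe (chr16:88561135-88561194 of mm9) had scaled signals of 4.9 in the *Pla2g3*+/+ and 3.04 in the labeled *Pla2g3*-/- vehicle pool, 0.612 in the *Pla2g3*+/+ AOM pool and 9.29 in the AOM pool labeled *Pla2g3*-/-. The *Pla2g3*+/+ AOM pool was thus the lowest and the other AOM pool the highest of the 4. Relative to vehicle, AOM signal was 8-fold lower in *Pla2g3*+/+ and 3.05-fold higher in the pool labeled *Pla2g3*-/-. Between the AOM pools the ratio was 15.2-fold, and over 13 other ways of processing it stayed between log2 ratios of 3.23 and 4.1. Several of these ways could not alter the ratio, because *Cldn8* has 1 probe that was well above background on every array.

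*Cldn3*, an abundant sealing claudin of the gut, was lower after AOM in both genotypes under the scaling used here. Its scaled signals were 39.1 and 41.7 with vehicle and 14.5 and 28.2 after AOM, with the *Pla2g3*+/+ pool first. The AOM signal was 2.7-fold lower than vehicle in *Pla2g3*+/+ and 1.48-fold lower, within the threshold, in the pool labeled *Pla2g3*-/-. Under quantile normalization these log2 ratios were -0.77 and -0.01, and without scaling -0.41 and 0.28. The AOM pools differed 1.94-fold, just inside the threshold, and the difference relative to the epithelium list was 0.27 log2 units.

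*Cldn7* behaved much as *Cldn3* by its bright probe (chr11:69781255-69781314). The scaled signals were 73.2 and 82.3 with vehicle and 25.2 and 39 after AOM, so AOM was 2.9-fold and 2.11-fold below vehicle. The second probe, which the array design ties to another transcript of *Cldn7* (chr11:69778772-69778831), was far dimmer, at 0.317, 0.274, 0.0828 and 0.193 in the same order. It was 3.82-fold and 1.42-fold lower after AOM, and it differed 2.33-fold between the AOM pools where the bright probe differed 1.55-fold. Both probes placed the *Pla2g3*+/+ AOM pool lowest.

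*Cldn4* was the one member over 2-fold higher after AOM in *Pla2g3*+/+ under the scaling used here. Its brighter probe by the mean over the 4 arrays (chr5:135421347-135421406) had scaled signals of 0.313 and 0.388 with vehicle, 1.16 in the *Pla2g3*+/+ AOM pool and 0.625 in the AOM pool labeled *Pla2g3*-/-. The other probe read 0.411, 0.458, 0.832 and 0.377, above the first in both vehicle pools and below it in both AOM pools. Both probes put the *Pla2g3*+/+ AOM pool highest, 3.71-fold and 2.02-fold above its vehicle pool. They disagreed on the pool labeled *Pla2g3*-/-, where AOM was 1.61-fold above vehicle by the brighter probe and 1.22-fold below it by the other. Between the AOM pools *Cldn4* was 1.86-fold lower by the brighter and 2.21-fold lower by the other probe in the pool labeled *Pla2g3*-/-, so the side of the threshold depends on the probe.

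*Cldn1*, the claudin often found raised in colorectal tumors, was not well above background on any array. Its single probe (chr16:26357372-26357431) read intensities of 3.44, 4.74, 5.02 and 5.59, where the lowest probe well above background on the same arrays read 10.7, 14.8, 16.4 and 17.1. No ratio is given for it.

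*Cldn15*, a pore-forming claudin that lets sodium return to the gut lumen, was the member most reduced after AOM. Its probe (chr5:137451465-137451524) had scaled signals of 7.54 and 8.21 in the vehicle pools, 0.476 in the *Pla2g3*+/+ AOM pool and 1.19 in the AOM pool labeled *Pla2g3*-/-. Both AOM pools lay below both vehicle pools, 15.8-fold lower in *Pla2g3*+/+ and 6.92-fold lower in the other genotype. Over 13 other ways of processing the log2 ratio stayed between -3.98 and -2.96 in *Pla2g3*+/+ and between -2.86 and -1.94 in the pool labeled *Pla2g3*-/-. Several of these ways could not alter the ratios, because *Cldn15* has 1 probe that was well above background on every array. The AOM pools differed 2.49-fold, which came within 2-fold relative to the epithelium list, at a log2 difference of 0.63. The 8 genes of the small-intestinal enterocyte list summed to scaled signals of 134.5 and 157.1 with vehicle, where *Fabp2* was far brighter than the rest. After AOM they summed to 1.19 in the *Pla2g3*+/+ pool and 9.53 in the pool labeled *Pla2g3*-/-. Of those with a value, 4 of 6 were over 2-fold lower and 0 higher after AOM in *Pla2g3*+/+. In the pool labeled *Pla2g3*-/-, 4 of 7 were lower and 3 higher. The part of these genes in the *Cldn15* signal was not tested.

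*Cldn2*, the pore-forming claudin of crypt cells, stayed near its vehicle signal by the brighter probe (chrX:136345244-136345303), with scaled signals of 2.43 and 2.19 with vehicle and 2.64 and 1.73 in the AOM pools. The dimmer probe (chrX:136343889-136343948) read 0.356, 0.34, 0.263 and 0.122. Both probes put the AOM pool labeled *Pla2g3*-/- lowest. It was 1.53-fold below the *Pla2g3*+/+ AOM pool by the brighter and 2.16-fold below it by the dimmer probe. The dimmer probe also read 2.78-fold lower after AOM than with vehicle in that genotype, where the brighter read 1.27-fold lower.

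The part of *Cldn12* and *Cldn23* in the gut is less studied. They spanned 0.8 and 1.06 log2 units over the 4 pools. *Cldn12* (chr5:5505223-5505282) had scaled signals of 5.01 and 4.68 with vehicle and 2.88 and 4.41 after AOM. Its *Pla2g3*+/+ AOM pool was 1.74-fold below vehicle, and the other 3 pools lay between 4.41 and 5.01. *Cldn23* (chr8:36888537-36888596) read 0.813 and 0.684 in the vehicle pools and 0.391 and 0.522 in the AOM pools. Signal was 2.08-fold lower after AOM in *Pla2g3*+/+ and 1.31-fold lower in the pool labeled *Pla2g3*-/-.

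*Ocln*, which encodes occludin, had scaled signals by its brighter probe (chr13:101268529-101268588) of 1.49 and 1.26 with vehicle, 0.733 in the *Pla2g3*+/+ AOM pool and 1.61 in the AOM pool labeled *Pla2g3*-/-. The dimmer probe (chr13:101267384-101267443) read 0.426, 0.326, 0.164 and 0.336. The *Pla2g3*+/+ AOM pool was the lowest by both probes, 2.03-fold and 2.59-fold below its vehicle pool. *Ocln* was between the AOM pools 2.19-fold and 2.04-fold higher in the pool labeled *Pla2g3*-/-, and relative to the epithelium list the brighter probe differed by 0.44 log2 units.

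Without scaling, the fall of *Ocln* in *Pla2g3*+/+ came to a log2 ratio of 0 after rounding and that of *Cldn23* to -0.04, and *Cldn12* turned to 0.22. All genes then shifted by 1.04 log2 units in this comparison and by 0.84 in the pool labeled *Pla2g3*-/-. Between the AOM pools, 7 of 9 members lay above 0 as scaled and 4 of 9 relative to the epithelium list, where *Cldn7*, *Cldn12* and *Cldn23* turned slightly negative. In the pool labeled *Pla2g3*-/-, 3 of 9 members lay above 0 after AOM as scaled and 7 of 9 without scaling.

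Of 61 other genes of the junction and its control, which include other claudins, partners and transcription factors, none was over 2-fold higher or lower between the vehicle pools among 51 with a value. Over all genes these shares were 1.92% and 1.32%. After AOM in *Pla2g3*+/+, 15 of 53 were over 2-fold lower and 4 higher, with a median log2 ratio of -0.38, where 22.3% of all genes were lower and 15.1% higher. In the pool labeled *Pla2g3*-/-, 2 of 54 were lower and 9 higher, with a median of 0.31, where 15.1% of all genes were lower and 9.64% higher. Between the AOM pools, 15 of 55 were higher and 2 lower in the pool labeled *Pla2g3*-/-, with a median of 0.63, the same as that of the members. Over all genes 15.1% were higher and 12.9% lower there. These shares over all genes also stand beside the counts of each list below.

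Of 16 other claudins on the array, 8 had a value in the *Pla2g3*+/+ comparison and 6 of them were over 2-fold lower after AOM, with 0 higher. *Cldn14* was among them with a log2 ratio of -2.5, and *Cldn22* had -2.87 as the bound of its log2 ratio. *Cldn10* was the one claudin of this list past 2-fold after AOM in the pool labeled *Pla2g3*-/-, with a log2 ratio of -1.27 from unscaled intensities of 50 and 37.3. Comparing the AOM pools, 4 of 10 exceeded 2-fold in favor of the pool labeled *Pla2g3*-/-, with *Cldn22* at least 3.68 log2 units higher.

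Of 9 other junction membrane proteins, 7 stayed within 2-fold after AOM in *Pla2g3*+/+. These include the tricellulin gene *Marveld2* and the junction adhesion gene *F11r*. *Bves* had -5.98 as the bound of its log2 ratio there and was at least 6.05 units higher in the AOM pool labeled *Pla2g3*-/-. *Bves* is also a gene of muscle, and smooth muscle markers differed the same way, but their part in its ratios was not tested.

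The junction scaffold list had 10 genes with a value and none of them was over 2-fold lower after AOM in either genotype. *Arhgef2* was 1.67 log2 units higher in *Pla2g3*+/+. In the pool labeled *Pla2g3*-/-, 5 of 10 were over 2-fold higher, *Mpdz* by 1.71 and *Magi1* by 1.37 log2 units among them. Of 7 polarity genes, 2 were lower in *Pla2g3*+/+, and *Inadl* was 1.52 log2 units higher in the pool labeled *Pla2g3*-/-. *Mpdz* was also 2.01 log2 units higher in that pool than in the *Pla2g3*+/+ AOM pool.

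Of 7 claudin partners and proteases, 2 were over 2-fold lower after AOM in *Pla2g3*+/+, whereas the pool labeled *Pla2g3*-/- had 0. In each genotype 1 was over 2-fold higher after AOM, with bounds of 5.95 and 3.24 log2 units. The median log2 ratio between the AOM pools was 0.63, with 0 over 2-fold higher and 1 lower, at -2.25.

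Of 12 transcription factors linked to claudin expression, *Cdx2*, an intestinal identity factor, was lower after AOM in both genotypes, with log2 ratios of -3.59 and -2.49. *Klf4*, a factor of differentiated surface cells, had log2 ratios of -2.55 in *Pla2g3*+/+ on AOM relative to vehicle and of 3.31 between the AOM pools, and *Cdx1* of 2.09 between the AOM pools. The repressors *Snai1* and *Snai2* were 2.24 and 2.23 log2 units higher after AOM in *Pla2g3*+/+, and *Snai1* had a log2 ratio of -2.2 between the AOM pools. *Twist1* was 1.51 log2 units higher after AOM in the pool labeled *Pla2g3*-/-, from unscaled intensities of 24.3 and 124.6.

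**Figure D3:**
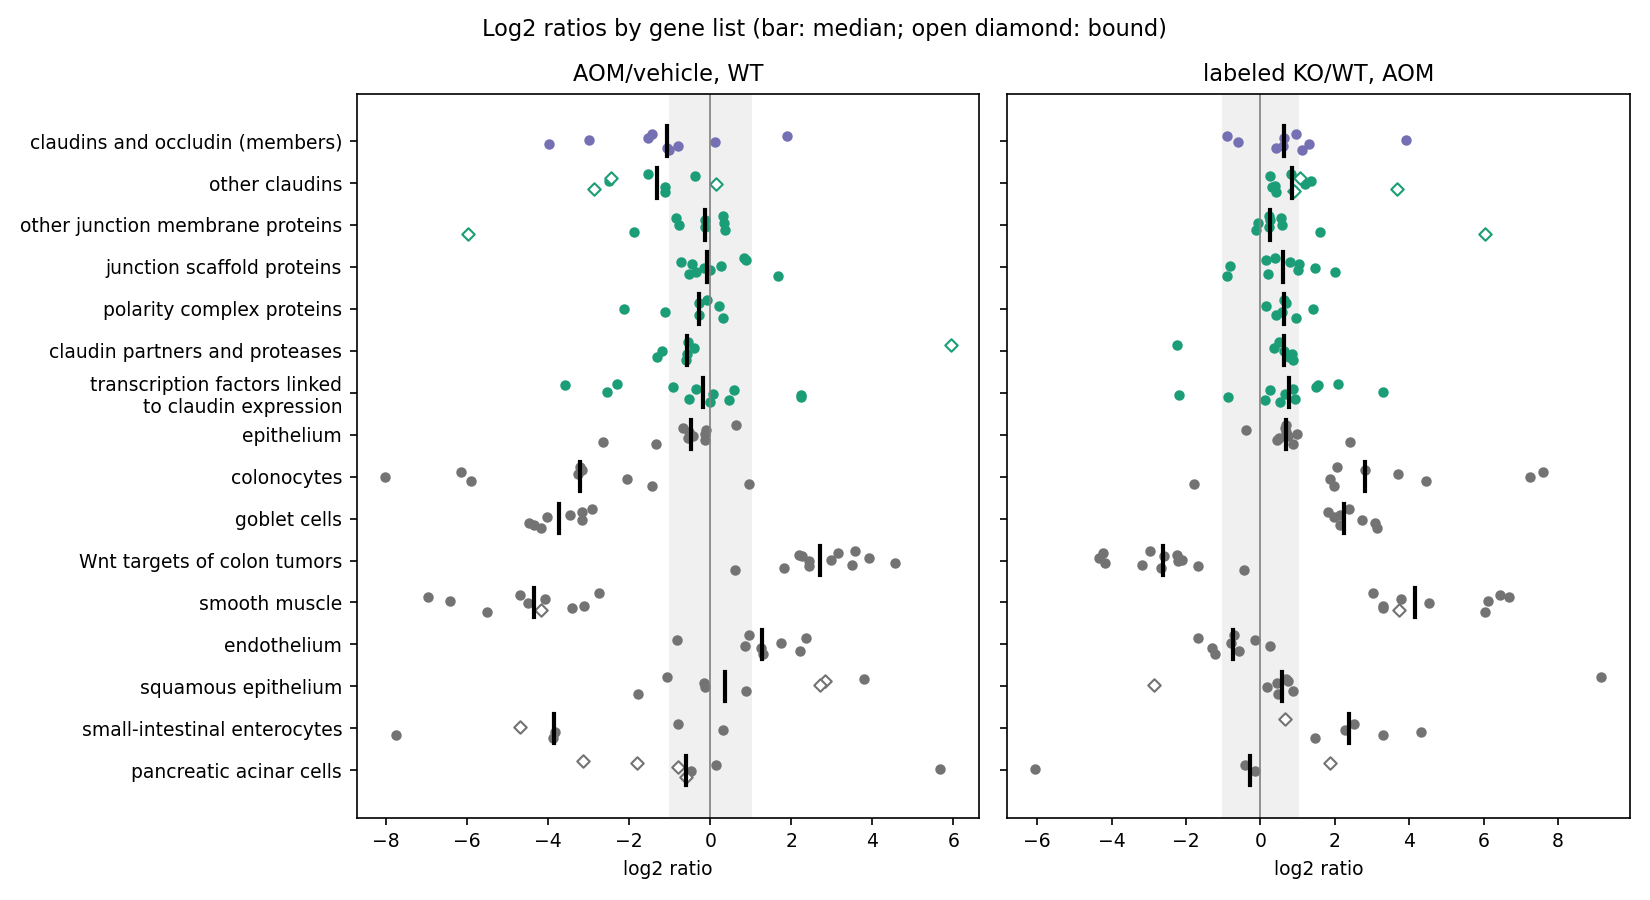
Log2 ratios (x axis) of the genes of each list, 1 point per gene, after AOM in *Pla2g3*+/+ and between the AOM pools. Bars are medians, open diamonds are bounds where 1 side was not well above background, and the shaded band is within 2-fold. The members have medians of -1.06 and 0.63, the epithelium list of -0.48 and 0.69 and the colonocyte list of -3.22 and 2.8.

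Patterns over the 4 pools that lay nearest to a member were sought among 14725 genes well above background on every array, by the largest difference between centered log2 signals. The 7 members that spanned over 1 log2 unit were used. Nearest to *Cldn8* were *Defb45*, *Fmo1* and *Atp12a*, the last a colonic proton and potassium pump, with largest differences of 0.108, 0.172 and 0.206. *Cldn15* lay nearest to *Slc10a2* and *Cgref1*, both at 0.158, and *Alpi* at 0.164, where *Slc10a2* and *Alpi* are the ileal bile acid transporter and intestinal alkaline phosphatase. *Cldn4* was nearest to *Msn* (0.041), *Bicc1* (0.06) and *Il3ra* (0.08). *Cldn3* was nearest to *Gap43* (0.019), *Cd82* (0.039) and *6230400D17Rik* (0.042), and *Cldn7* to *Cyria* (0.037), *Ndufv2* (0.042) and *Bri3* (0.058). For *Cldn23* these were *Alox12b* (0.022), *Traf5* (0.024) and *Dpm1* (0.03), and for *Ocln* they included *Tmtc1* (0.037) and *Vamp2* (0.038). With 4 pools these are descriptions of shape alone.

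**Figure D4:**
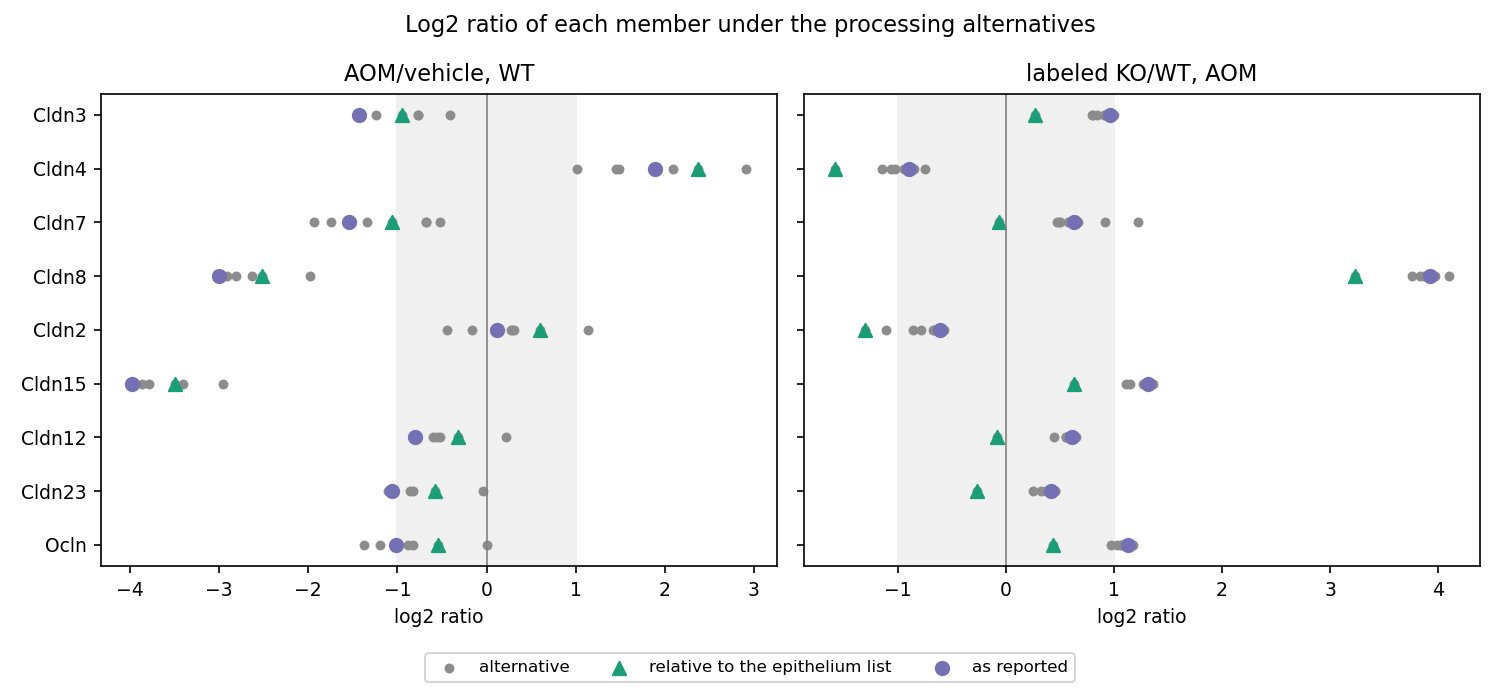
Log2 ratio (x axis) of each member after AOM in *Pla2g3*+/+ and between the AOM pools, as reported (large circles), relative to the epithelium list (triangles) and under the other alternatives (small points). The shaded band is within 2-fold. *Cldn15* and *Cldn8* stay outside the band on the lower side after AOM in *Pla2g3*+/+ and *Cldn8* on the higher side between the AOM pools under all of them. After AOM in *Pla2g3*+/+ *Cldn3*, *Cldn7*, *Cldn23* and *Ocln* cross into the band under some alternatives, and between the AOM pools *Cldn15* and *Ocln* do.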

How the data were processed

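RNA pools (27.7 ng each) were Cy3-labeled and hybridized singly to 4 Whole Mouse Genome arrays of 1 slide. Groups were taken from the deposited labels. Pools held 3 to 5 mice per the labels, whereas the methods give 4 and the whole descending colon.

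The authors deposited spot intensity from Agilent Feature Extraction 11.5.1.1, corrected for background and for spatial trend, with a call of signal well above background. The deposited table is a ratio, the authors' intensity over the 75th percentile of its array, and all 43020 spots of each array equaled this within 0.001 of the value.

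Control and outlier spots were left out, log2 intensities of replicate spots were averaged, and the 75th percentile over all spots was subtracted. Where 1 side was not well above background, it took the higher of its own signal and the array's lowest signal well above background, and the ratio is a bound. Genes were named through RefSeq (GRCm38.p6, names only, 31077 of 39423 probes) and represented by the brightest probe, and every member probe was reported. Probe coordinates are those of the files on mm9, and exon or UTR positions were not analysed here.

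The members and lists were chosen with earlier results of these data known. No test was run, because each group has 1 array. Named genes are the members, *Pla2g3*, up to 5 other junction genes with the largest ratios past 2-fold in each direction and comparison, up to 3 brightest genes of a marker list, and the 3 genes nearest in pattern to a member. *Marveld2*, *F11r*, *Lmod1*, *Ivl* and *Krt1* were named outside this rule after their values were seen, and 2 genes that the rule names are not reported here.

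Alternatives were other scalings (quantile, none, median, detected probes, epithelium list), normexp with an offset of 50 (limma 3.58.1, R 4.3.3), treatments of dim probes, the mean or dimmest probe, outlier spots kept, the deposited table, and thresholds of 1.5-fold and 4-fold. Calculations used Python 3.11.15, pandas 2.3.3 and numpy 2.4.6 and were tested on simulated data.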

Additional observations from a re-analysis of the deposited data

Results flagged for a closer look

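*Cldn8* and *Ocln* each had genotype ratios of opposite sign with vehicle and after AOM, with at least 1 of them past 2-fold. *Cldn8* had a log2 ratio of -0.69 between the vehicle pools and 3.92 between the AOM pools, a difference of 4.61, which is also the difference between its AOM/vehicle ratios of -3 (*Pla2g3*+/+) and 1.61 (labeled *Pla2g3*-/-). *Ocln* had log2 ratios of -0.24 and 1.13, a difference of 1.37, with AOM/vehicle ratios of -1.02 and 0.35, and its dimmer probe gave a difference of 1.42. Neither difference was tested, since each rests on 4 single arrays.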

How the results depend on the processing

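Of 120 recomputed counts of members past the threshold, 96 stayed within 1.5 times the reported count, some of them 0 under every setting. Of 468 recomputed log2 ratios of single members, 343 lay within 0.0933 of the reported ratio and 125 did not. Sign changes were counted only where the reported ratio was past 2-fold, and none was found. Ratios within 2-fold did change sign without scaling, such as *Cldn12* in *Pla2g3*+/+ (-0.8 to 0.22) and *Cldn3* in the pool labeled *Pla2g3*-/- (-0.57 to 0.28). Treatments of dim probes could not move the ratios of the 9 members with a value, because all were well above background on every array. The deposited table could not either, because it holds the same scaled signals, nor could keeping outlier spots, because every member probe has 1 spot per array. Without scaling the counts were 3 higher and 1 lower after AOM in the pool labeled *Pla2g3*-/-, 2 higher and 2 lower in *Pla2g3*+/+, and 1 lower between the AOM pools. Relative to the epithelium list they were 3 lower in *Pla2g3*+/+ after AOM, and 1 higher and 2 lower between the AOM pools. Normexp with quantile normalization gave 2 lower in *Pla2g3*+/+ after AOM. The count lower after AOM in the pool labeled *Pla2g3*-/- was 1 under quantile normalization, normexp with quantile normalization, the percentile over detected probes and the mean over probes, and with the dimmest probe it was again 2, with *Cldn2* in place of *Cldn7*. The mean over probes gave 1 lower and the dimmest probe 2 lower between the AOM pools. At 1.5-fold there were 2 higher in the pool labeled *Pla2g3*-/- after AOM, 6 higher and 2 lower between the AOM pools, and 1 lower (*Cldn8*) between the vehicle pools. At 4-fold there were 0 higher after AOM in either genotype, 1 lower in the pool labeled *Pla2g3*-/-, 2 lower in *Pla2g3*+/+ and 1 higher between the AOM pools. The all-gene median moved by 1.04 (*Pla2g3*+/+) and 0.84 (labeled *Pla2g3*-/-) log2 units after AOM without scaling, and by 0.11 to 0.2 under quantile normalization and the percentile over detected probes. Shares over all genes are given for the reported scaling at 2-fold alone, so the counts of the alternatives have none beside them. Apart from these scalings and thresholds, the cause of a moved count was not tested. No paired analysis was possible because each group has 1 array, and for the same reason no replicate could be left out. The number of arrays limits the precision of every value.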
